A study of Rattus norvegicus with 9 samples.

Results

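Heat shock proteins of the small and large families were followed in a rat model of bladder cancer. The members were 10 genes: the small heat shock proteins Hspb1, Hspb6, Hspb7, Hspb8 and Cryab, the HSP70 proteins Hspa2 and Hspa8, the HSP90 protein Hsp90aa1, the mitochondrial chaperonin Hspd1 and the DnaJ protein Dnajb1. A probe set was taken as a member where the array annotation gave it 1 of these gene symbols and no other. That left 12 probe sets of 31042, for 8 of the 10 genes, and 14217 genes had a probe set in all. Hspa8 had 1 probe set and Hsp90aa1 had 2, but the annotation gave each of these to another gene as well, so neither gene has a value here. Hspb7, Hspb8, Hspa2 and Dnajb1 each had more than 1 probe set, and the one with the highest mean over the 9 arrays is given first.

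RNA was measured on 9 Affymetrix arrays, 3 in each of 3 groups. Tumors were bladder transitional cell carcinomas of female SD rats, aged 10 weeks by the labels, whose bladders were instilled with N-methyl-N-nitrosourea (MNU, an alkylating carcinogen) at 20 mg/ml once a week for 10 weeks. The adjacent normal tissue came from the same 3 MNU-treated rats. The normal bladders came from 3 other female SD rats, also aged 10 weeks by the labels, that the design calls normal. All 9 samples carry the same protocol text, MNU included, so the untreated state of the normal rats rests on the design and the sample descriptions. The model is a chemically induced tumor, and each tissue was taken whole, with no cell type isolated.

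Heat shock proteins are chaperones. The small ones bind unfolding proteins and hold them in a state from which they can be refolded, and several are abundant in muscle, where they protect the contractile apparatus. HSP70 proteins refold such clients with ATP and with DnaJ partners, HSP90 finishes the folding of signalling proteins, and the mitochondrial chaperonin folds imported proteins in a closed chamber. Many of these genes are switched on by heat shock factor 1, which binds inverted repeats of the unit GAA in their promoters.

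Relative to normal bladder, Hspb6, Hspb8 and Hspa2 were lower in the tumors and in the adjacent tissue, and Hspd1 was higher in both. Hspb1, Hspb7, Cryab and Dnajb1 did not pass the test in either. The signals are MAS 5.0 values in log2, and the test was limma with Benjamini-Hochberg adjustment over all probe sets. In tumors against normal bladder, 1 of the 8 members was higher and 3 were lower at an adjusted p under 0.05, where 13.6% of all genes were higher and 9.95% were lower. In adjacent tissue against normal bladder, again 1 was higher and 3 were lower, beside 13.3% and 11.5% of all genes. The median log2 difference of the 8 members was -2.24 in tumors and -2.45 in adjacent tissue, and over all genes it was 0.05 and 0.01. Of all genes called, 57.7% were higher in tumors and 53.7% in adjacent tissue, and after centring each array on its median 69.7% were in either, with the members' counts as before. Both comparisons use the same 3 normal arrays, so they are not independent of each other.

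The 4 calls in the tumors rested on few arrays, while those in the adjacent tissue were steadier. Without tumor 2 or without tumor 3 only Hspd1 passed among the members, and without normal 1, normal 2 or normal 3 none did (limma, lowest adjusted p without 1 normal array 0.0574 for Hspd1). Without tumor 1 the count rose to 7, of which 1 was higher and 6 were lower. Among 76 other heat shock and chaperone genes, described below, the count rose as well, from 18 to 32. The share of all genes in that setting is not given here, so the rise is not read as particular to the members. Fitted with no mean-variance trend in limma, the tumor comparison called no member, with adjusted p of 0.0623 for Hspd1, 0.0650 for Hspa2, 0.101 for Hspb6 and 0.110 for Hspb8. In the adjacent tissue, leaving out 1 array at a time gave 3 to 6 members, the highest without adjacent 1 and the lowest without normal 3, where Hspa2 had a limma adjusted p of 0.0534.

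**Figure D1:**
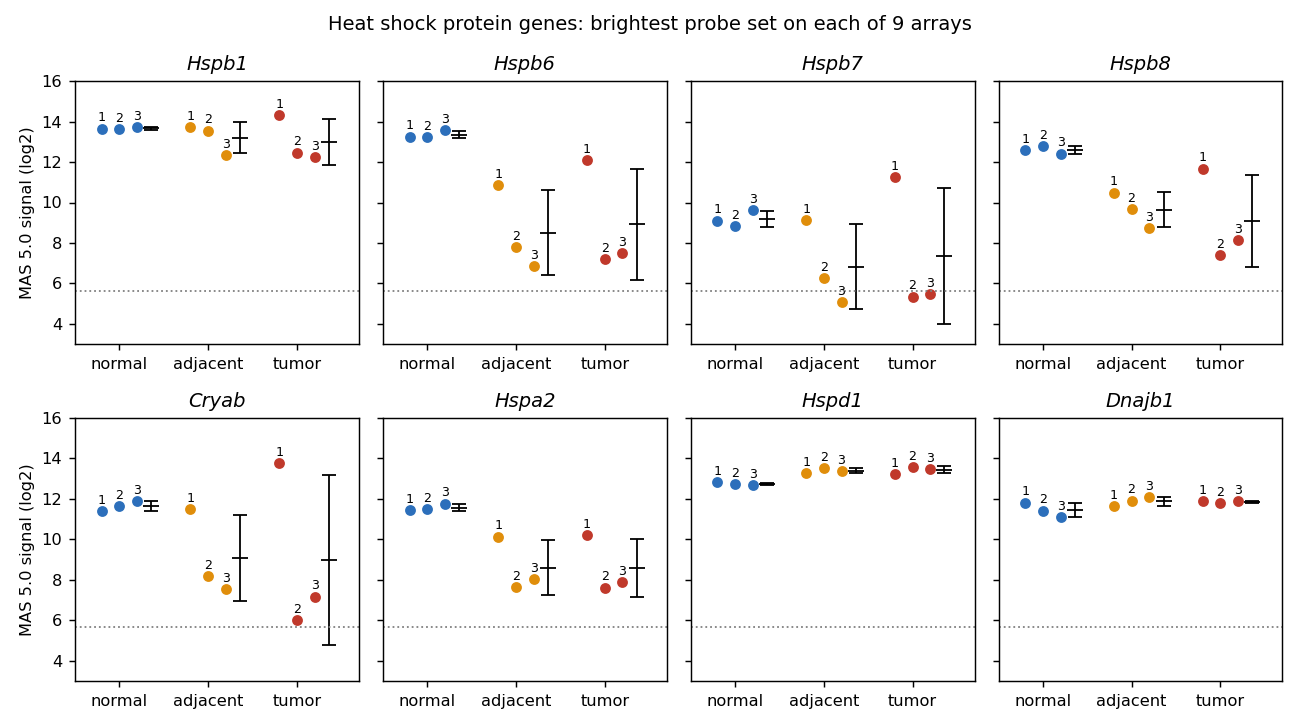
MAS 5.0 signal (log2, vertical axis) of the brightest probe set of each of 8 heat shock genes, by group; each numbered point is 1 array, the bar beside each group is the mean with its SD (n = 3), and the dotted line is a signal of 50. Tumor 1 and adjacent 1 stand above the other arrays of their groups for Hspb6, Hspb7, Hspb8, Cryab and Hspa2, whose normal arrays lie closer together (SD 0.17 to 0.41).

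The promoters of the 4 genes that passed are shown because those of the genes that fell and of the gene that rose can be read for the same element. Each is RefSeq sequence of the GRCr8 build, from 250 bases before the annotated start to 50 bases from it, written 5′ to 3′ on the strand of the gene. Capitals mark each match to GAANNTTC or TTCNNGAA, the 8-letter cores of the heat shock element. Each core is its own reverse complement, so 1 search covers both strands, and matches that overlap run together.
Hspb6 promoter, chr1:94934122-94934421, plus strand: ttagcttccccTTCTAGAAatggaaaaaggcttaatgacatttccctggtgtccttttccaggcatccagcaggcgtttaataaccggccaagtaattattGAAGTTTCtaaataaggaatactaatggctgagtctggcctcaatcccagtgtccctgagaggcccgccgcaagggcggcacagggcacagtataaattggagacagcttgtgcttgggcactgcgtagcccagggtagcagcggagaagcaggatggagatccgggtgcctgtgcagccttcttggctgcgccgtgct
Hspb8 promoter, chr12:45837058-45837357, plus strand: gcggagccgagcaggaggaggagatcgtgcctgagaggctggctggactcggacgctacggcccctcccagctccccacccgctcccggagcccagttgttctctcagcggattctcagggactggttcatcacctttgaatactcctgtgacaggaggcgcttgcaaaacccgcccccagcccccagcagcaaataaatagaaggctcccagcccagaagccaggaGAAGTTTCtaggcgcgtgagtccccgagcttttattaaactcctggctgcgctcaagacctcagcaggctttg
Hspa2 promoter, chr6:100864192-100864491, plus strand: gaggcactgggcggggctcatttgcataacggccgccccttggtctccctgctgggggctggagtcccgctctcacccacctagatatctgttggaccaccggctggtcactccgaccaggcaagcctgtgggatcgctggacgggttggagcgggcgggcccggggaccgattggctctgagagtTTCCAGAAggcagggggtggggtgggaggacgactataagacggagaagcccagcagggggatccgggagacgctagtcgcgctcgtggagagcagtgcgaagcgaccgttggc
Hspd1 promoter, chr9:64083988-64084287, minus strand: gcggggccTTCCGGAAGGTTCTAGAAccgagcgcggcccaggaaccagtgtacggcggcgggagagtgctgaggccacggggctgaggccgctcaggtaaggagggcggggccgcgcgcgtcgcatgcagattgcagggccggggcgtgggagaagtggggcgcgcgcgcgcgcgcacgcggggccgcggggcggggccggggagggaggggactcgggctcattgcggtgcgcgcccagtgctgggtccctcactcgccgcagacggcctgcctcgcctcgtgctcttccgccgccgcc
The matches begin 239 and 149 bases before the start in Hspb6, 23 bases before it in Hspb8 and 64 bases before it in Hspa2. In Hspd1 there are 3 overlapping matches, which begin 242, 237 and 232 bases before the start. Of the 10 members, 8 had a promoter in the table used, and 7 of those 8 held at least 1 match, Hspb7 being the one that held none. Of all 33469 promoters of the same 300 bases, 15.9% held a match. The 8-letter cores were thus found in genes that were lower and in the gene that was higher. A longer form of 13 letters, with 3 units in a row, was held by Hspd1 but not by Hspb6, Hspb8 or Hspa2. Of all promoters, 0.798% held this longer form. Of the members, 2 held it, Hspd1 and Hspa8, and Hspa8 has no value here. Whether the longer form bears on the higher Hspd1 was not tested. A match is a string of letters, not a bound site.

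Hspb6 encodes HSP20, a small heat shock protein best known from smooth muscle, where its phosphorylation accompanies relaxation. In normal bladder its log2 signal was 13.26, 13.24 and 13.56. In the tumors it was 12.09, 7.21 and 7.48, and in the adjacent tissue 10.87, 7.81 and 6.86. All 6 arrays from MNU-treated rats lay below the 3 normal arrays, and tumor 1 and adjacent 1 stood above the other arrays of their groups by over 3 log2 units. As a percentage of the normal mean, tumor 1 held 41.8%, tumor 2 1.41% and tumor 3 1.71%. The adjacent arrays held 17.8%, 2.14% and 1.11%. The difference from normal was -4.43 on the log2 scale in tumors (SE 1.19, limma adjusted p = 0.0431) and -4.84 in adjacent tissue (SE 0.87, limma adjusted p = 0.00847). In these whole tissues, fewer cells of a type and less RNA per cell cannot be told apart.

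Hspb8 encodes HSP22, which works with the co-chaperone Bag3 to clear damaged muscle proteins through autophagy. Its brighter probe set read 12.58, 12.80 and 12.41 in normal bladder. It read 11.67, 7.39 and 8.16 in the tumors, and 10.48, 9.68 and 8.75 in the adjacent tissue. The groups did not overlap with normal, and the adjacent arrays were closer together (SD 0.87) than the tumor arrays (SD 2.28). The log2 difference from normal was -3.52 in tumors (SE 0.99, limma adjusted p = 0.0497) and -2.96 in adjacent tissue (SE 0.38, limma adjusted p = 0.00245). With all 9 arrays in 1 fit, the call in adjacent tissue was lost (limma adjusted p = 0.0568). The dimmer probe set of Hspb8 gave -2.74 in tumors (limma adjusted p = 0.0393) and -2.72 in adjacent tissue (limma adjusted p = 0.00061), with tumors 2 and 3 below a signal of 50, under which fold changes were not relied on. Both probe sets of the gene thus went the same way. Bag3 itself read 11.52 ± 0.23 in normal bladder, 11.44 ± 0.31 in tumors and 11.18 ± 0.16 in adjacent tissue (log2, SD, n = 3), and passed neither test (limma adjusted p = 0.814 and 0.173); it was singled out after its values were seen.

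Cryab encodes alphaB-crystallin, a chaperone of the lens and of striated and smooth muscle that binds desmin and actin filaments. Its log2 signal was 11.38, 11.62 and 11.90 in normal bladder and 11.50, 8.19 and 7.55 in the adjacent tissue. In the tumors it was 13.75, 6.01 and 7.16. Tumor 1 lay above every normal array, at 435% of the normal mean, while tumors 2 and 3 lay far below all of them, at 2.03% and 4.51%. Adjacent 1 fell among the normal arrays at 91.5%. With that spread, the log2 difference of -2.66 in tumors had an SE of 1.80 (limma adjusted p = 0.361), and that of -2.55 in adjacent tissue had an SE of 0.89 (limma adjusted p = 0.0868). Without tumor 1 the tumor difference was -5.05, and without adjacent 1 the adjacent difference was -3.76, and both then passed.

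Hspb7 encodes a small heat shock protein known from heart and skeletal muscle. Its brighter probe set read 9.10, 8.84 and 9.64 in normal bladder, 11.25, 5.35 and 5.49 in the tumors and 9.14, 6.28 and 5.09 in the adjacent tissue. As with Cryab, tumor 1 stood above normal bladder, at 414% of its mean, adjacent 1 stood among the normal arrays, and the other 4 lay below. Tumors 2 and 3 and adjacent 3 were under a signal of 50, so the size of their fall is not precise. The log2 difference was -1.83 in tumors (limma adjusted p = 0.436) and -2.36 in adjacent tissue (limma adjusted p = 0.109), and it was -3.77 without tumor 1 and -3.51 without adjacent 1, where both passed. The dimmer probe set did not repeat this pattern, reading 7.50, 7.33 and 7.91 in tumors against 7.95, 8.38 and 8.10 in normal bladder. Its differences were -0.57 in tumors and -0.75 in adjacent tissue (limma adjusted p = 0.124 and 0.0864). The 2 probe sets of Hspb7 thus disagree on the position of tumor 1 and on the size of the change. Their means over the 9 arrays were close, at 7.80 and 7.71.

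Hspb1 encodes HSP27, which binds actin filaments and is common in epithelium as well as in muscle. Normal bladder gave log2 signals of 13.65, 13.61 and 13.72. The tumors gave 14.31, 12.46 and 12.25, and the adjacent tissue gave 13.72, 13.55 and 12.33. As with Cryab, tumor 1 was the highest array, at 157% of the normal mean, but tumors 2 and 3 still held 43.6% and 37.6%. The log2 differences of -0.65 in tumors (SE 0.50, limma adjusted p = 0.415) and -0.46 in adjacent tissue (SE 0.33, limma adjusted p = 0.392) were within the spread. Without tumor 1 the tumor difference was -1.31 and passed.

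**Figure D2:**
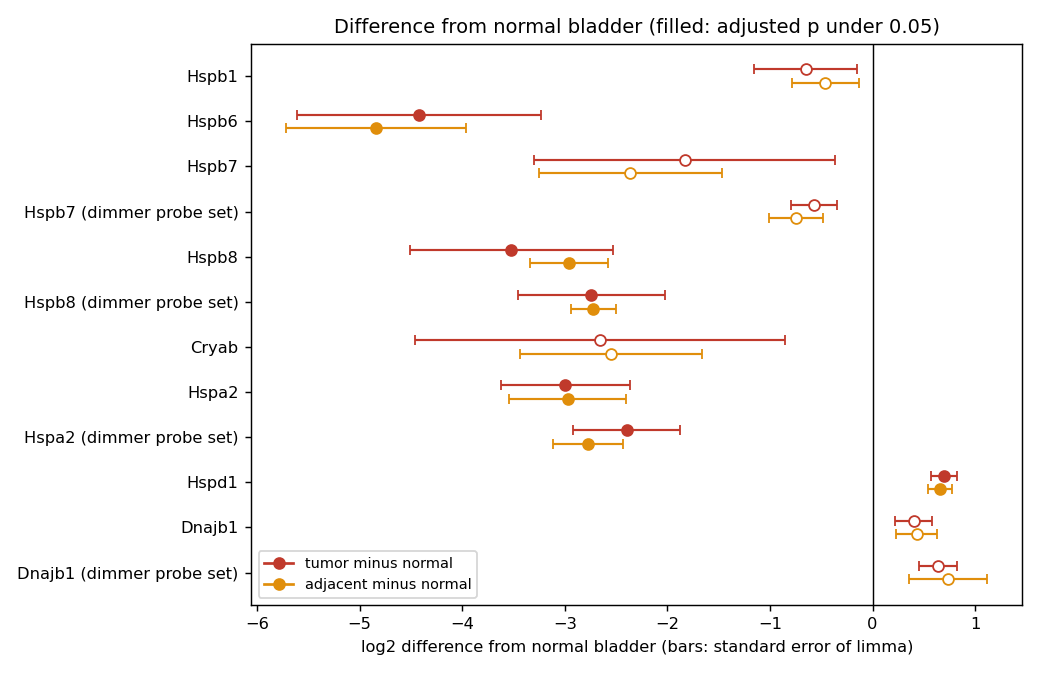
Log2 difference from normal bladder (horizontal axis) of all 12 probe sets, for tumors and for adjacent tissue; bars are the standard error of limma, and filled points passed at an adjusted p under 0.05. The small heat shock proteins and Hspa2 lie left of 0 and Hspd1 and Dnajb1 right of it, and the bars of Cryab and of the brighter Hspb7 probe set are the widest in tumors.

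Hspa2, an HSP70 protein best known from developing sperm, read 11.44, 11.49 and 11.76 in normal bladder with its brighter probe set. It read 10.22, 7.61 and 7.88 in the tumors and 10.13, 7.62 and 8.03 in the adjacent tissue. With this probe set, the tumor and the adjacent array with the same number differed by at most 0.15 log2 units, and all 6 lay below normal bladder. The log2 difference was -3.00 in tumors (SE 0.63, limma adjusted p = 0.0209) and -2.97 in adjacent tissue (SE 0.57, limma adjusted p = 0.0108). The dimmer probe set gave -2.40 (limma adjusted p = 0.0226) and -2.78 (limma adjusted p = 0.00216). Its tumor 1 and adjacent 1 were further apart, at 8.96 and 8.07. Unlike Cryab and the brighter probe set of Hspb7, Hspa2 was below normal bladder in tumor 1 too, at 39.4% of the normal mean.

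Dnajb1 encodes HSP40, the stress-induced partner that delivers clients to HSP70. Its brighter probe set read 11.81, 11.41 and 11.11 in normal bladder, 11.88, 11.77 and 11.88 in the tumors and 11.64, 11.90 and 12.07 in the adjacent tissue. Adjacent 1 and tumor 2 lay within the normal range, so the groups overlapped. The log2 differences of 0.40 and 0.43 did not pass (limma adjusted p = 0.174 and 0.186), nor did those of the dimmer probe set, 0.63 and 0.74 (limma adjusted p = 0.0545 and 0.232).

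Hspd1, or HSP60, forms the chamber of the mitochondrial chaperonin. It read 12.81, 12.71 and 12.67 in normal bladder, 13.23, 13.57 and 13.46 in the tumors and 13.28, 13.53 and 13.36 in the adjacent tissue. Every tumor and adjacent array lay above every normal array, at 142% to 179% of the normal mean. The log2 difference was 0.69 in tumors (SE 0.13, limma adjusted p = 0.0131) and 0.66 in adjacent tissue (SE 0.12, limma adjusted p = 0.00771). With no mean-variance trend it was not called in either (limma adjusted p = 0.0623 and 0.0582). Its partner Hspe1, the lid of the chamber, which was singled out after its values were seen, differed by 0.35 and 0.37 and passed in neither (limma adjusted p = 0.112 and 0.0829).

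Tumors were then compared with the adjacent tissue of the same rats, in a fit with no block for the rat. No member passed, and 0% of all genes did (limma, lowest adjusted p of a member 0.9997). At an unadjusted p under 0.05, limma gave 0 members and 376 genes, or 2.64% of all, and the methods' t-test with its fold limit gave 0 members too. For the differences within a rat, arrays with the same number were taken to be of 1 rat, which the design does not state. Within rat 1, so taken, the tumor was above its adjacent tissue for Cryab by 2.25 log2 units. For Hspb7 it was above by 2.11, for Hspb6 by 1.23 and for Hspb8 by 1.19. In rat 2 the same genes were lower in the tumor, by -2.18, -0.92, -0.60 and -2.29. In rat 3 they differed by -0.39, 0.40, 0.62 and -0.60, so no direction was shared by the 3 rats. These values are of the brightest probe sets. The dimmer probe set of Hspb7 read 7.50 in tumor 1 and 7.79 in adjacent 1. Hspd1 differed within a rat by -0.05, 0.04 and 0.10, and Dnajb1 by 0.24, -0.13 and -0.19.

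Markers of smooth muscle had their highest sums of each group on tumor 1 and adjacent 1, as the small heat shock proteins did by their brightest probe sets. The list held 20 genes, of which 19 were measured, with Tpm2, Actg2, Tpm1 and Myh11 the brightest and none under a signal of 50 on all arrays. Their summed signal was 67.3%, 10.5% and 8.86% of the normal mean in tumors 1, 2 and 3, and 35.5%, 14.4% and 8.90% in the adjacent tissue. All 19 were lower in adjacent tissue, and 9 of 19 were lower in tumors at an adjusted p under 0.05. Tumor 1 and adjacent 1 held the most muscle signal of their groups. By the brightest probe sets, these are the arrays with the highest Hspb6, Hspb7, Hspb8, Cryab and Hspa2. The dimmer probe set of Hspa2 kept this order. That of Hspb7 was highest in adjacent 1 but, of the tumors, in tumor 3 (7.91, against 7.50 in tumor 1). That of Hspb8 was highest in tumor 1 but lowest of the adjacent arrays in adjacent 1 (6.16). The part of the smooth muscle content in the results for these genes was not tested.

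Set beside the median marker on each array, the members spread to both sides. The median log2 difference from normal over the 19 markers was -0.62, -4.79 and -4.75 in the tumors and -2.00, -3.43 and -4.30 in the adjacent tissue. Hspb6 was below that median on all 6 arrays, and in adjacent 2 and adjacent 3 it was below all 19 markers, with differences of -5.54 and -6.49. Hspb8 lay between -0.92 and -5.21 on the 6 arrays and never more than 0.52 from the marker median. Cryab and the brighter probe set of Hspb7 stood 2.12 and 2.05 above normal in tumor 1. No marker was above normal there, and the highest was at -0.14. On adjacent 1 the same probe sets differed from normal by -0.13 and -0.06, again above all 19 markers. On the other 4 arrays both lay inside the range of the markers. The dimmer probe set of Hspb7 was below normal in tumor 1, at 63.7%. Hspb1 was above all markers on tumor 1 and on the 3 adjacent arrays, and Hspd1 and Dnajb1 were above all of them on all 6 arrays.

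**Figure D3:**
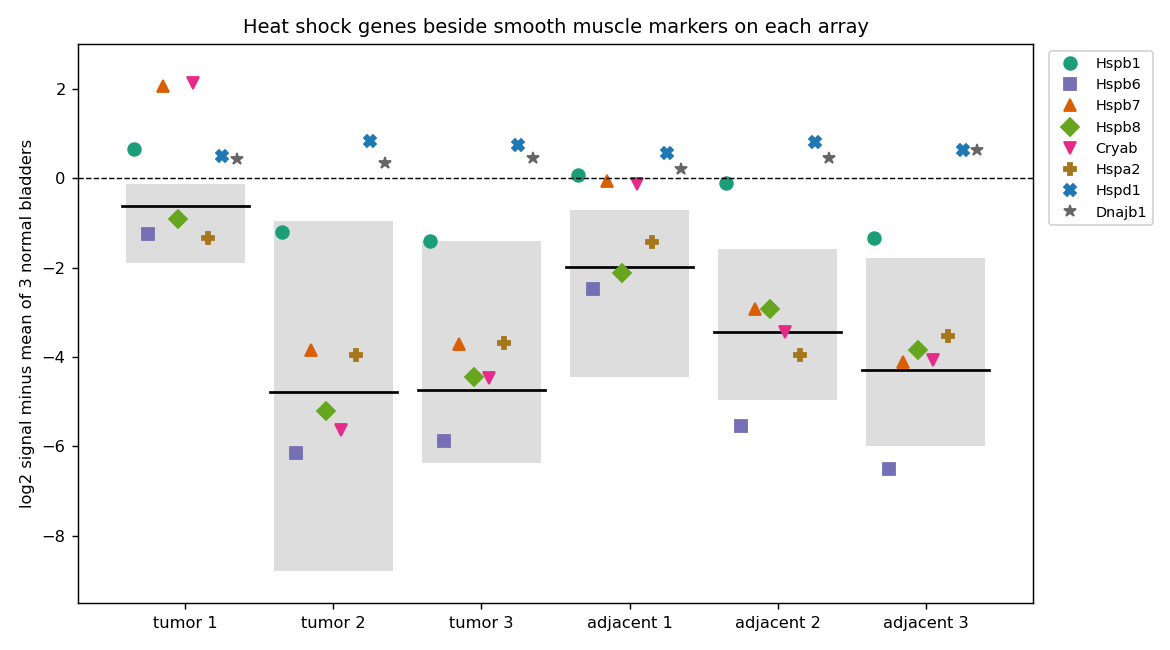
Log2 signal minus the mean of the 3 normal bladders (vertical axis) for 8 heat shock genes on each tumor and adjacent array; the grey box spans the lowest to the highest of 19 smooth muscle markers and the black line is their median. Each gene is shown by its brightest probe set. Hspb6 lies below the line on all 6 arrays, and Cryab and Hspb7 lie above the box on tumor 1 and adjacent 1.

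Other cell types were read from lists of markers in the same way. Of 16 skeletal muscle markers, 15 were measured, 3 of them under a signal of 50 on all arrays. They summed to 77.3%, 13.3% and 20.3% of normal in the tumors and to between 18.3% and 23.9% in the adjacent tissue. By limma at an adjusted p under 0.05, 4 of the 15 were lower in tumors and 7 in adjacent tissue. The brightest were Tnnc2, Myh1, Acta1 and Tnni2. In tumors Myh1 read 10.94 to 11.59 and Tnni2 8.86 to 9.49. In normal bladder they read 11.25 to 11.45 and 8.75 to 9.06. Fibroblast markers, all 10 measured, summed to 76.8%, 8.37% and 18.2% in the tumors and to between 21.8% and 63.7% in the adjacent tissue. Of the 10, 0 passed in tumors and 5 were lower in adjacent tissue (limma, adjusted p under 0.05). Their median log2 difference was -2.35 in tumors and -1.14 in adjacent tissue, and their brightest genes were Col3a1, Col1a2, Dcn and Lum. Unlike the median, Thy1 and Fap were above every normal array on every tumor array. Tumor 1 thus held the most signal of the tumors on all 3 lists of muscle and fibroblast markers. Markers of the umbrella cells of the bladder lining (9 of 10 measured) ran from 88.3% to 108% of normal in tumors and from 59.4% to 105% in adjacent tissue. This fits the bladder label of all the samples, but the sum follows its brightest genes, Krt7, Upk3a, Upk1b and Krt8. By limma at an adjusted p under 0.05, 1 of the 9 was higher and 2 were lower in tumors, and 2 were lower in adjacent tissue. Krt20 read at least 9.58 in normal bladder, 3.72 to 7.15 in tumors and 7.32 to 8.41 in adjacent tissue (log2). Basal and squamous epithelial markers (11 of 15 measured) ran from 235% to 322% in tumors and from 244% to 522% in adjacent tissue, and cell division genes (21 of 23 measured) from 184% to 358% and from 192% to 314%. Leukocyte markers, all 15 measured, ran from 215% to 440% in tumors and from 256% to 895% in adjacent tissue. The brightest of them were Lyz2, S100a9, S100a8 and Cd14. By limma at an adjusted p under 0.05, 5 of the 15 were higher in tumors and 6 in adjacent tissue. The other 10 and 9 did not pass. Endothelial markers (9 of 10 measured) stayed between 82.8% and 121%, those of Schwann cells and nerve (7 of 10) between 45.5% and 113%, and those of adipocytes (7 of 8) between 79.3% and 197% over the 6 arrays. The adjacent tissue was thus apart from normal bladder on the muscle, fibroblast, basal, leukocyte and cell division sums. Its Schwann and nerve sum (45.5% to 92.6%) was lower too, while its endothelial (91.3% to 103%) and adipocyte (94.6% to 111%) sums were near normal. A sum follows its brightest genes. In adjacent tissue, 1 of 7 nerve genes was higher and 5 were lower by limma at an adjusted p under 0.05. Of 9 endothelial genes, 3 were higher and 1 lower. No adipocyte gene passed, with a median log2 difference of -1.57. The part of these shifts in the higher Hspd1 was not tested.

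For each member, the genes with the most similar profile over the 9 arrays were sought among 11075 genes, by the mean absolute difference of log2 values after centring each gene. The nearest to Hspb6 was Synpo2, an actin-bundling protein of muscle and itself in the smooth muscle list, at 0.36, where Hspb6 deviated from its own mean by 2.60 on average. The nearest to Hspa2 was Acta2, the smooth muscle actin, at 0.21, and the third was the DnaJ gene Dnajb5. The nearest to Hspb8 were Pi16, Tshz3 and Meis2, at 0.23 to 0.24.

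The nearest to Cryab were Flnc at 0.40, Hspb7 at 0.46 and Actg2 at 0.58. Flnc encodes filamin C, an actin cross-linker of muscle. It stood at 219% of normal in tumor 1, at 2.25% and 2.79% in tumors 2 and 3, and at 120%, 5.91% and 4.49% in the adjacent tissue. It thus shared with Cryab and the brighter probe set of Hspb7 a tumor 1 above normal bladder. Actg2, a smooth muscle actin, held 86.0% there. The dimmer probe set of Hspb7 was below normal in tumor 1, at 63.7%. For Hspb7 the nearest were Bmper at 0.44, Cryab and Boc at 0.59.

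The nearest to Hspb1 were Kcnd1, Rasa3 and Mmrn2, at 0.12 to 0.15. Hspd1 lay nearest to Cdh1, the E-cadherin of epithelial junctions, at 0.05, and Prmt2 and Smad2 followed at 0.06. Cdh1 was at 146%, 188% and 162% of normal in the tumors. Dnajb1 lay nearest to Tomm34 at 0.06, then to Map3k11 and Chordc1 at 0.09. All these distances rest on the same 9 arrays of 3 groups, so genes that differ between groups by a like amount come out as near.

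The other heat shock and chaperone genes were a list of 78 from general knowledge, with 76 measured. Their median log2 difference from normal bladder was smaller in size than that of the members. Of those that passed, more were higher than lower. Members and list were chosen with earlier results of these data known, so the contrast is not a test. In tumors 14 were higher and 4 lower than in normal bladder, with a median log2 difference of 0.16. In adjacent tissue 11 were higher and 5 lower, with a median of 0.13. These are 18.4% higher and 5.26% lower in tumors, and 14.5% and 6.58% in adjacent tissue. They are to be read against the shares of all genes given above. In all, 23.7% passed in tumors and 21.1% in adjacent tissue, near the 23.5% and 24.8% of all genes. After centring the arrays on their medians the split in adjacent tissue was 22 higher to 3 lower. Over all 14217 genes, the same setting called 3012 higher and 1308 lower. None of the 76 differed between tumors and adjacent tissue by limma, at an adjusted or an unadjusted p under 0.05. The tumor count depended on single arrays, at 32 without tumor 1, 8 without tumor 2, 6 without tumor 3, 1 without normal 1 or normal 2 and 3 without normal 3. The adjacent count of 16 fell to 10 without adjacent 3, 7 without normal 1, 6 without normal 2 and 8 without normal 3. The shares of all genes with 1 array left out are not given here. These changes are thus not read as particular to the list.

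By class, the counts were as follows, with 13.6% of all genes higher and 9.95% lower in tumors and 13.3% and 11.5% in adjacent tissue, and no class was tested against another. Of 18 other DnaJ genes, 6 were higher and 1 lower in tumors, and 5 were higher and 2 lower in adjacent tissue. Of 25 co-chaperones, 5 were higher and 2 lower in tumors, and 2 were higher and 2 lower in adjacent tissue. Of 9 other chaperonin genes, 2 were higher in tumors and 3 in adjacent tissue, none lower. Of 5 other small heat shock genes, 1 was lower in each comparison, Hspb2, and none higher. Of 12 other HSP70 and HSP110 genes, none passed in tumors by limma and 1 was higher in adjacent tissue. Of 3 other HSP90 genes 1 was higher in tumors, and none of the 4 heat shock factors passed in either comparison. Hspa1a, the classical heat-inducible HSP70, which was singled out after its values were seen, differed by -0.37 in tumors and -0.59 in adjacent tissue (limma adjusted p = 0.471 and 0.249).

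The steepest rises in the list were the same 3 genes in both comparisons. Grpel2, a nucleotide exchange factor of mitochondrial HSP70, rose by 1.41 log2 units in tumors (SE 0.31, limma adjusted p = 0.0230) and by 1.52 in adjacent tissue (SE 0.29, limma adjusted p = 0.0103). Dnajb11, a DnaJ protein of the endoplasmic reticulum, rose by 0.83 (limma adjusted p = 0.0124) and 0.87 (limma adjusted p = 0.00447). Dnajc3, a stress-induced DnaJ protein of the same compartment, rose by 0.77 (limma adjusted p = 0.00639) and 0.78 (limma adjusted p = 0.00434). Dnajc3 passed in both comparisons without any single array. The tumor call of Grpel2 was lost without tumor 3 or any normal array (limma adjusted p up to 0.0890) and its adjacent call without normal 2 (limma adjusted p = 0.0511), and the tumor call of Dnajb11 was lost without normal 1 or normal 2 (limma adjusted p up to 0.0631). With no mean-variance trend the tumor calls of Grpel2 and Dnajb11 were lost as well (limma adjusted p = 0.0635 and 0.0547).

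The steepest falls were also the same 3 genes. Hspb2, a small heat shock protein of muscle, read 7.07, 7.40 and 7.58 in normal bladder, 6.05, 1.72 and 2.98 in tumors and 4.66, 2.25 and 1.67 in adjacent tissue. All 3 adjacent arrays were under a signal of 50, so against that limit the adjacent tissue was at least 3.26-fold lower (limma adjusted p = 0.00694), and in tumors limma gave an adjusted p of 0.0441. Unc45b, a myosin chaperone of striated muscle, was under 50 on all tumor and adjacent arrays, and was at least 2.14-fold lower in both (limma adjusted p = 0.0443 and 0.0416). Dnajb5, a DnaJ protein among the nearest to Hspa2 above, differed by -2.55 in tumors (limma adjusted p = 0.0276) and -2.59 in adjacent tissue (limma adjusted p = 0.00633). The tumor calls of Hspb2 and Dnajb5 were each lost without tumor 2, tumor 3 or any normal array (limma adjusted p up to 0.138 and 0.0969). The tumor call of Unc45b was lost without tumor 2 or any normal array, and its adjacent call without adjacent 2, adjacent 3 or any normal array (limma adjusted p up to 0.151 and 0.146). Quantile normalization also ended both calls of Unc45b (limma adjusted p = 0.0546 and 0.0676), and median centring (0.0533) and 1 fit of all 9 arrays (0.0890) ended its adjacent call. With no mean-variance trend, limma called neither Unc45b (adjusted p = 0.0863 in tumors and 0.0800 in adjacent tissue) nor, in tumors, Hspb2 (0.0930) and Dnajb5 (0.0745). Hspb2 and Unc45b are known from muscle. The smooth and skeletal muscle sums given above were likewise below normal on every tumor and adjacent array. Of the 15 skeletal markers, though, limma called only 4 lower in tumors and 7 in adjacent tissue. Among the tumors, Hspb2 was highest in tumor 1, as those sums were. Unc45b was highest in tumor 3 (5.28, against 3.40 and 2.45 in tumors 1 and 2), though all these values are under the limit of 50. The part of the muscle content in these falls was not tested.

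**Figure D4:**
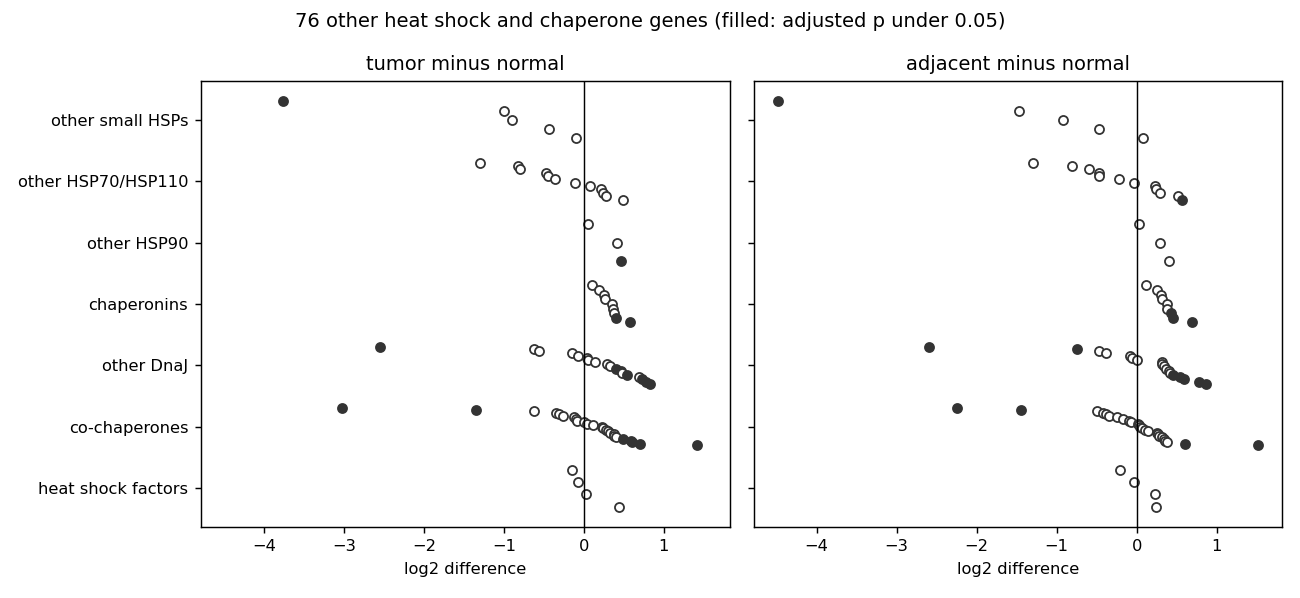
Log2 difference from normal bladder (horizontal axis) of 76 other heat shock and chaperone genes by class, in tumors (left) and adjacent tissue (right); each point is 1 gene, and filled points passed at an adjusted p under 0.05. Most filled points lie between 0 and 1, and the points left of -2 are Hspb2, Unc45b and Dnajb5.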

How the data were processed

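Total RNA of 9 rat bladder tissues was labelled by 3′ in vitro transcription and measured on Affymetrix arrays of 31099 probe sets. The authors normalized the arrays with MAS 5.0, and the deposited values are log2 signals. Trimmed by 2% at either end, the mean linear signal was near 500 on every array, and nothing was rescaled. The 57 array controls were left out. The annotation gave 1 gene to 20826 probe sets, several to 436 and none to 9780, and only the first kind names a gene, by its brightest probe set. The number of arrays, 3 a group, limits the precision.

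Each pair of groups was fitted with R 4.3.3 and limma 3.58.1 (lmFit, eBayes with a mean-variance trend), with Benjamini-Hochberg adjustment over 31042 probe sets and a threshold of 0.05. The script was tested on simulated data. A signal of 50 was the limit below which folds are given as bounds, against that value.

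The design pairs tumors and adjacent tissues by rat. Same-numbered tumor and adjacent arrays deviated together (r = 0.52, 0.13 and 0.38 over 20418 probe sets), which was taken as the pairing, although tumor 2 was closer to adjacent 3 (r = 0.27). Normal bladders share only a number with the others. The main fits had no block.

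The members, the gene lists and the marker lists were chosen with earlier results of these data known. Named besides the members are the 3 largest rises and falls among the other chaperone genes that passed and, for each member, the 3 genes nearest in profile. Alternatives were quantile normalization, median centring, an added signal of 50, a filter on dim probe sets, no variance trend, 1 fit of all arrays, the replicate block, averaged probe sets of a gene, the methods' t-test and leaving out each array. Promoters are RefSeq sequences of GRCr8.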

Additional observations from a re-analysis of the deposited data

How the results depend on the processing

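Against the 4 members called in tumors, the count was 0 with no variance trend, 2 with the replicate block (1 higher, 1 lower), 2 by the methods' t-test unadjusted and 0 after Benjamini-Hochberg, and it ran from 0 to 7 leaving out 1 array. Of the 4 called in adjacent tissue, the methods' t-test after Benjamini-Hochberg called 1. Leaving out 1 array gave 3 to 6. The other chaperone genes, 18 called in tumors, gave 2 with no variance trend, 11 with all 9 arrays in 1 fit, 9 with the replicate block, 5 by the methods' t-test and 6 after Benjamini-Hochberg, and 1 to 32 leaving out 1 array. In adjacent tissue, 16 were called, and 25 after median centring, 7 with no variance trend, 5 by the methods' t-test, 6 after Benjamini-Hochberg and 6 to 22 leaving out 1 array. Numbers do not pair normal rats with the others, and the block ended, among the genes named, the tumor calls of Hspb6, Hspb8 and Hspb2. For tumors against adjacent tissue, where numbers were taken to pair the rats, the block called 0 members as the fit without it did. The cause of these changes was not tested, beyond the fewer arrays where one was left out. Of these settings, the calls over all genes are given only for median centring, above.

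Median centring raised the median log2 difference of all genes from 0.05 to 0.25 in tumors and from 0.01 to 0.21 in adjacent tissue. It left 1 member higher and 3 lower in both.

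Reversals of sign were all in tumors against adjacent tissue, where nothing was called. Cryab was 0.12 with a pseudocount of 50. Hspa2 was 0.0284 after quantile normalization and 0.18 over the mean of its probe sets, and Hspd1 was -0.0688 after quantile normalization. Without replicate 1 of both groups, a setting added after the data were seen, Hspb7 was -0.26. Leaving out 1 array, the difference ran from -0.85 to 0.19 for Hspb1, -1.17 to 1.59 for Hspb6, -1.41 to 1.68 for Hspb7, -1.87 to 0.28 for Hspb8, -2.50 to 1.37 for Cryab, -0.85 to 0.75 for Hspa2, -0.0419 to 0.126 for Hspd1 and -0.144 to 0.0726 for Dnajb1. Taking the mean of its probe sets ended the tumor call of Dnajb5 (-1.69, limma adjusted p = 0.109).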

Other observations

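Cryab and Hspb2 are neighbours whose annotated spans overlap in GRCr8, and they were set side by side after their values were seen. In tumor 1, Cryab was at 435% of the normal mean and Hspb2 at 40.7%. In adjacent 1, Cryab was at 91.5%, while Hspb2 was under a signal of 50 and so at least 3.26-fold below its normal mean. The same bound holds for Hspb2 on the other 4 arrays, where Cryab was between 2.03% and 9.21% of normal bladder.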
